A study of Mus musculus with 10 samples.

Results

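The genes described here are 6 ion channel genes that make endocrine cells of the gut electrically excitable, namely Abcc8, Kcnj11, Kcnh2, Cacna1a, Cacna1h and Scn3a. They were picked by name, with their levels in these libraries already known, and all 6 were found among the 35006 gene names of the count tables. Their levels and fold changes across the sorted populations are therefore given as a description, without a test.

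Enteroendocrine cells are the scattered hormone-secreting cells of the intestinal epithelium. Like pancreatic beta cells and neurons they hold a resting membrane potential, fire action potentials and release hormone granules when calcium enters. In the textbook model the K-ATP channel, built from the pore Kcnj11 (Kir6.2) and the sulfonylurea receptor Abcc8 (SUR1), closes when ATP rises. The membrane then depolarises, voltage-gated sodium channels such as Scn3a (Nav1.3) and calcium channels such as Cacna1a (P/Q type) and Cacna1h (T type) open, and potassium channels such as Kcnh2 (ERG1, of the ether-a-go-go family) bring the potential back.

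The study sorted live EpCAM+ small intestinal crypt cells of EF1a-OSCAR mice (strain C57BL6/J) into 5 populations with 2 libraries each, 10000 cells per library, and sequenced poly-A RNA. In these mice the Rosa26 locus carries mCherry-P2A-VeN90 under the EF1a promoter, with the stop cassette removed by Vasa-cre, and all populations share this transgene. VeN90 is a yellow fluorescent protein that dims when the kinase CDK9 phosphorylates it, so a high VeN90/mCherry ratio (OSCARhigh) marks low CDK9 activity. By the labels P1 is OSCARlow EF1alow, P2 OSCARhigh EF1alow, P3 OSCARlow EF1ahigh, P4 OSCARmed EF1alow and P5 OSCARmed EF1ahigh. Neither age nor sex is given in the labels. The gates are drawn on reporter fluorescence, so each population is a mixture of crypt cell types. In such bulk libraries more cells of a type and more RNA per cell cannot be told apart.

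The libraries held between 3857612 and 6485811 counts assigned to genes, so that a count of 0 allowed up to 3 counts. On raw library totals that is between 0.463 and 0.778 CPM (counts scaled to a common library total). The other CPM values given here are scaled further by library, and on that scale 3 counts were 1.59 CPM in P3 replicate 1. Intervals and floors of this kind cover counting error only. The 2 libraries labelled P3 stood apart, with 59.2% and 36.1% of their counts on mitochondrial genes against 1.04% to 5.19% in the other 8. The libraries labelled P2 held the secretory cell markers, which the published account places in the OSCARlow EF1ahigh gate. The count tables have no reporter gene that could settle this. The labels P2 and P3 may therefore be exchanged, in which case every value given here for P2 would belong to the OSCARlow EF1ahigh gate, and this was not tested. Names here follow the labels. Summed CPM of 27 enteroendocrine markers was 6047 and 15648 in the libraries labelled P2, 862 and 536 in P4, and between 42.7 and 483 in the remaining 6. Of these markers Chgb, a granule protein, had the most counts. None of the 27 was at 0 in both libraries labelled P2, and the same held in P1, P4 and P5, while 5 were at 0 in P3. Neurog3 went the other way, with counts scaled by library size of 0 and 8.66 in P2 and 83.3 and 66.2 in P4. For Pax4, Gcg and Nts too, the libraries labelled P2 were not both above all other 8, as they were for the rest of the list. The libraries labelled P2 were no pure endocrine fraction. Their Paneth markers, led by lysozyme Lyz1, summed to 571971 and 412144 CPM, their goblet markers, led by Fcgbp, to 51194 and 119333, and their tuft markers, led by Trpm5, to 783 and 1368.

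All 6 genes had their highest level in the libraries labelled P2, and for each of them both of those libraries lay above all other 8. This held for 21.2% of the 13708 genes that passed the filter on low counts. The rule chose the members on this pattern, so nothing is read from their count. The second population was P4 for 5 of the 6 and P1 for Kcnh2, and both P4 libraries lay above both P5 libraries for all 6 (16.3% of the 13708 genes). Levels below are normalised counts, that is counts divided by a size factor of each library. The plot of the members by library shows P4 second in 5 of its 6 panels.

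**Figure D1:**
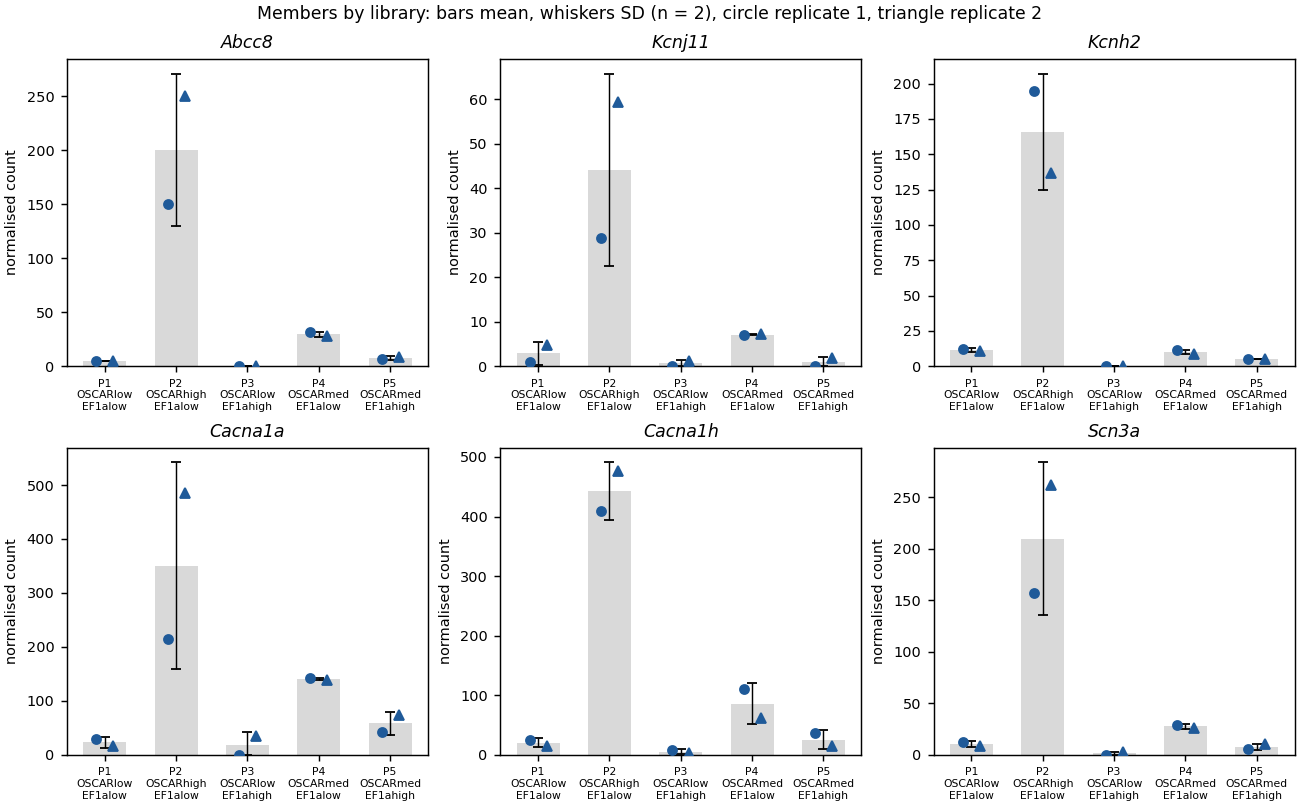
Normalised counts (vertical axes, linear, from 0) of the 6 genes in the 10 libraries, by population. Bars are means, whiskers the SD (n = 2, cut at 0), circles replicate 1 and triangles replicate 2. Both points labelled P2 are the highest in every panel, and in the Kcnh2 panel alone replicate 2 of P2 is below replicate 1.

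The K-ATP channel was represented by both of its genes. Abcc8, the regulatory subunit, had normalised counts of 150 and 250 in the libraries labelled P2. P4 followed with 31.3 and 27.6, then came 6.39 and 8.84 in P5, 4.72 and 4.75 in P1, and no count in either library labelled P3. These 5 pairs did not overlap as counted. The floor of 3 counts in P3 replicate 1 is 8.27 normalised counts. It lies above the values of P1 and the 6.39 of P5, so P3 cannot be placed below these at this depth. Its mean was 200 ± 70.5 (SD, n = 2) in P2 and 29.4 ± 2.61 (SD, n = 2) in P4, a ratio of 6.80. Against the floor of 3 counts per library it was at least 33.5-fold higher in P2 than in P3.

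Kcnj11, the pore, had the fewest counts of the 6 in P2. It had 16 and 48 counts in the libraries labelled P2, 10 and 13 in P4, and between 0 and 5 in each of the other 6. In normalised counts that was 28.9 and 59.4 in P2 and 6.95 and 7.17 in P4, with means of 44.1 ± 21.5 and 7.06 ± 0.157 (SD, n = 2) and a ratio of 6.26. The low values of P1, P5 and P3 overlapped and cannot be ordered at this depth. Per kilobase of exon, which allows levels of different genes to be set side by side, Abcc8 stood at 30.3 and 50.4 normalised counts in P2 and Kcnj11 at 9.41 and 19.3. In P4 the same levels were 6.31 and 5.57 for Abcc8 and 2.26 and 2.33 for Kcnj11. In each of these 4 libraries the transcript of the pore was the lower one per kilobase. The channel protein holds pore and regulatory subunit in equal number, but RNA levels do not give numbers of subunits. The exon lengths used may also differ from those of the annotation used for counting. The genes are neighbours on the minus strand of chromosome 7 (NCBIM37). Kcnj11, a single exon, runs from 53352533 to 53355607 and Abcc8 from 53359893 to 53435403, with 4285 bases and no annotated gene between them.

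Kcnh2, the ERG1 potassium channel, had the largest ratio between the libraries labelled P2 and the next population. It had normalised counts of 195 and 137 there, 12.3 and 10.4 in P1, 11.1 and 8.82 in P4. P5 had 5.11 and 5.30, with no count in either library labelled P3. P1 and P4 overlapped, so Kcnh2 lacked the step from P1 up to P4 that the other 5 genes showed, a step that 40.3% of all tested genes had as non-overlapping pairs. Its mean was 166 ± 41.0 (SD, n = 2) in P2 and 9.97 ± 1.62 (SD, n = 2) in P4, a ratio of 16.7, the largest of the 6 in this pair of populations. Against the floor it was at least 27.8-fold higher in P2 than in P3. Per kilobase of exon it was at 40.3 and 28.3 in P2, a range that overlaps that of Abcc8.

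Kcnh2 lies on the minus strand of chromosome 5 (NCBIM37, 23825407 to 23857422). It was the only one of the 6 with a window in the RefSeq promoter table of GRCm38.p6, and the window is shown because the pattern of this gene parts from those of the others. It covers 250 bases before and 50 after a transcript start, and is given 5′ to 3′ on the gene's strand at chr5:24329542-24329841. In NCBIM37 the same bases are at chr5:23835360-23835659, 22 kb inside the gene, so that they belong to the start of a shorter transcript and not to its first start. Capitals mark GGGCGG, the GC box.
Kcnh2: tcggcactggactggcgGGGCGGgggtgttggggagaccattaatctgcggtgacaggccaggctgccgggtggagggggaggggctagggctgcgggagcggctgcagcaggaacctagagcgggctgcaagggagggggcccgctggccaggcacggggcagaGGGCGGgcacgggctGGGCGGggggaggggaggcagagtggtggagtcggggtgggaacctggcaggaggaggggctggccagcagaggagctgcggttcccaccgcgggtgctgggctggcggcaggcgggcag
Its GC content was 74.3%, against a median of 52.7% over the 32851 windows of the table. GGGCGG, searched on both strands, had 3 matches here, and 35.7% of all windows held at least 1. CANNTG, the E-box bound by basic helix-loop-helix factors such as Neurod1, had 0 matches, and 72.3% of all windows held it. Gene counts do not show which start was used.

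The calcium channel genes reached the highest normalised counts of the 6 in P2, on a scale that favours long genes. Per kilobase of exon their means there were 45.3 ± 4.97 for Cacna1h and 30.7 ± 16.8 for Cacna1a, beside 40.4 ± 14.2 for Abcc8 and 34.3 ± 8.46 for Kcnh2 (SD, n = 2). Cacna1h, the T-type pore that opens at voltages near rest, had 409 and 477 in the libraries labelled P2, 110 and 61.7 in P4. P5 had 37.0 and 14.1, P1 25.5 and 15.2, and P3 8.27 and 2.45. Its mean was 443 ± 48.6 (SD, n = 2) in P2 and 86.1 ± 34.4 (SD, n = 2) in P4, a ratio of 5.15. P5 and P1 overlapped. Of its 9788 exon bases on the minus strand of chromosome 17 (25511230 to 25570728), 158 are shared with Tpsg1, a gene of the opposite strand that is also on the goblet marker list. Reads were counted without regard to strand, so reads of the shared bases cannot be told apart. Tpsg1 itself had 306 and 569 counts in the libraries labelled P2 against 1 to 190 in the others. The part of the overlap in the values of Cacna1h was not tested.

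Cacna1a, the P/Q-type pore that triggers vesicle release at synapses, had normalised counts of 215 and 486 in the libraries labelled P2, 142 and 139 in P4. P5 had 42.8 and 73.1, P1 29.3 and 16.1, and P3 0 and 35.5. It was the least restricted of the 6. Its mean was 351 ± 192 (SD, n = 2) in P2 and 141 ± 1.56 (SD, n = 2) in P4, a ratio of 2.49, the smallest of the 6. The gap between these means, 210, was about the SD of P2. P4, P5 and P1 followed each other without overlap, and P1 and P3 overlapped. On chromosome 8 (86912339 to 87164145, plus strand) 435 of its exon bases are shared with the opposite-strand transcript Gm16183, which had between 0 and 8 counts in each library.

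Scn3a, the sodium channel that carries the upstroke of the action potential, followed the pattern of Abcc8. It had normalised counts of 157 and 262 in the libraries labelled P2, 29.2 and 25.9 in P4, 12.3 and 8.55 in P1, 5.75 and 10.0 in P5, and 0 and 2.45 in P3. P1 and P5 overlapped, and the other neighbours in this order did not. The floor of 3 counts in P3 replicate 1, 8.27 normalised counts, lies above the 5.75 of P5. Its mean was 210 ± 74.2 (SD, n = 2) in P2 and 27.5 ± 2.31 (SD, n = 2) in P4, a ratio of 7.62. The gene is on the minus strand of chromosome 2 (65295175 to 65405684) and its exons overlap no exon of another annotated gene.

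Set against the average of the other 4 populations, the fitted log2 fold changes in P2 were 5.89 (SE 0.36) for Abcc8, 5.81 (SE 0.34) for Kcnh2, 4.68 (SE 0.34) for Scn3a, 4.37 (SE 0.69) for Kcnj11, 4.34 (SE 0.35) for Cacna1h and 2.95 (SE 0.48) for Cacna1a. The libraries labelled P3 enter these values. As counted, 4 of the genes (Abcc8, Kcnh2, Cacna1h and Scn3a) were lower in both of them than in all other 8 libraries, as were 6.70% of all tested genes. The floor of 3 counts in P3 replicate 1, 8.27 normalised counts, is above values of Abcc8, Kcnh2 and Scn3a in P1 or P5. At that floor these genes cannot be placed below every other population. A fit without the libraries labelled P3 gave 4.26, 4.25, 3.97, 4.00, 3.61 and 2.61 in the order above. Abcc8 and Kcnh2 had no count in P3, so their fitted values against the average depend on the prior count. With P3 set to the floor of 3 counts the log2 differences of the means were 4.49 for Abcc8 and 4.43 for Kcnh2. Cacna1a moved most with a single library, from 2.95 to 4.85 without P3 replicate 2, which held all 29 of its P3 counts. It then had no count in P3, so 4.85 depends on the prior count too.

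The 2 libraries labelled P2 differed in their marker levels, and the members did not all differ the same way. Replicate 2 was higher than replicate 1 in the enteroendocrine markers, by a median log2 difference of 1.44 over 27 genes, and lower in the Paneth markers, by a median of -0.47 over 12. Cacna1a (1.27), Kcnj11 (1.08), Scn3a (0.83), Abcc8 (0.82) and Cacna1h (0.32) were higher in replicate 2 as well. Kcnh2 alone was lower there, with a log2 difference of -0.41. The enterocyte (1.02), tuft (0.81) and goblet (0.59) lists were also higher in replicate 2, so the direction of the 5 genes is not particular to the enteroendocrine list. The median of all tested genes was 0.09.

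**Figure D2:**
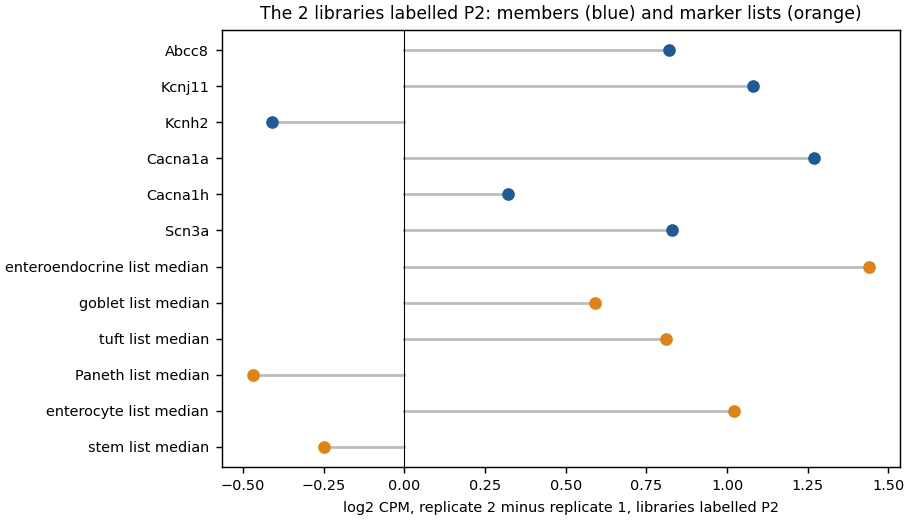
Difference between the 2 libraries labelled P2 (horizontal axis, log2 CPM of replicate 2 minus replicate 1) for the 6 genes (blue) and for the medians of 6 marker lists (orange). Kcnh2 at -0.41 is on the side of the Paneth (-0.47) and stem (-0.25) lists, and the other 5 genes are on the side of the enteroendocrine list (1.44), as are the enterocyte (1.02), tuft (0.81) and goblet (0.59) lists.

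Counts of each gene were also set against the summed counts of the 27 enteroendocrine markers of the same library. Intervals are exact 95% Poisson intervals of the gene's count. Per 1000 marker counts, Kcnh2 was at 5.42 (4.45 to 6.55) in P2 replicate 1 and at 1.57 (1.30 to 1.90) in P2 replicate 2, and these intervals do not overlap. Cacna1h behaved alike, with 11.3 (9.92 to 12.9) and 5.48 (4.94 to 6.05). Kcnj11 (0.803 and 0.681) and Cacna1a (5.97 and 5.58) had overlapping intervals in the 2 libraries. Abcc8 (4.17 and 2.87) and Scn3a (4.37 and 3.01) were each lower in replicate 2, with intervals that did not overlap.

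By the same measure Cacna1a did not keep one ratio to the markers across populations. It had 28.9 and 46.6 counts per 1000 marker counts in P4. P5 had 29.3 and 27.1 and P1 14.6 and 10.1, all above its 5.97 and 5.58 in P2. Cacna1h was likewise above its P2 values in both libraries of P4, at 22.5 and 20.6. Abcc8 had 6.38 and 9.21 in P4 against 4.17 and 2.87 in P2, and Scn3a 5.95 and 8.66 against 4.37 and 3.01. In replicate 1 the intervals of P4 and P2 overlapped for both genes. They were 4.65 to 8.54 and 3.32 to 5.17 for Abcc8, and 4.29 to 8.05 and 3.50 to 5.39 for Scn3a. Kcnj11 had 1.42 (0.680 to 2.61) and 2.40 (1.28 to 4.10) in P4, intervals that overlap the 0.459 to 1.30 of P2 replicate 1. Kcnh2 alone had P4 values, 2.27 and 2.95, that lay between its P2 values. The markers include abundant hormone transcripts, and the part of hormone content in these ratios was not tested.

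**Figure D3:**
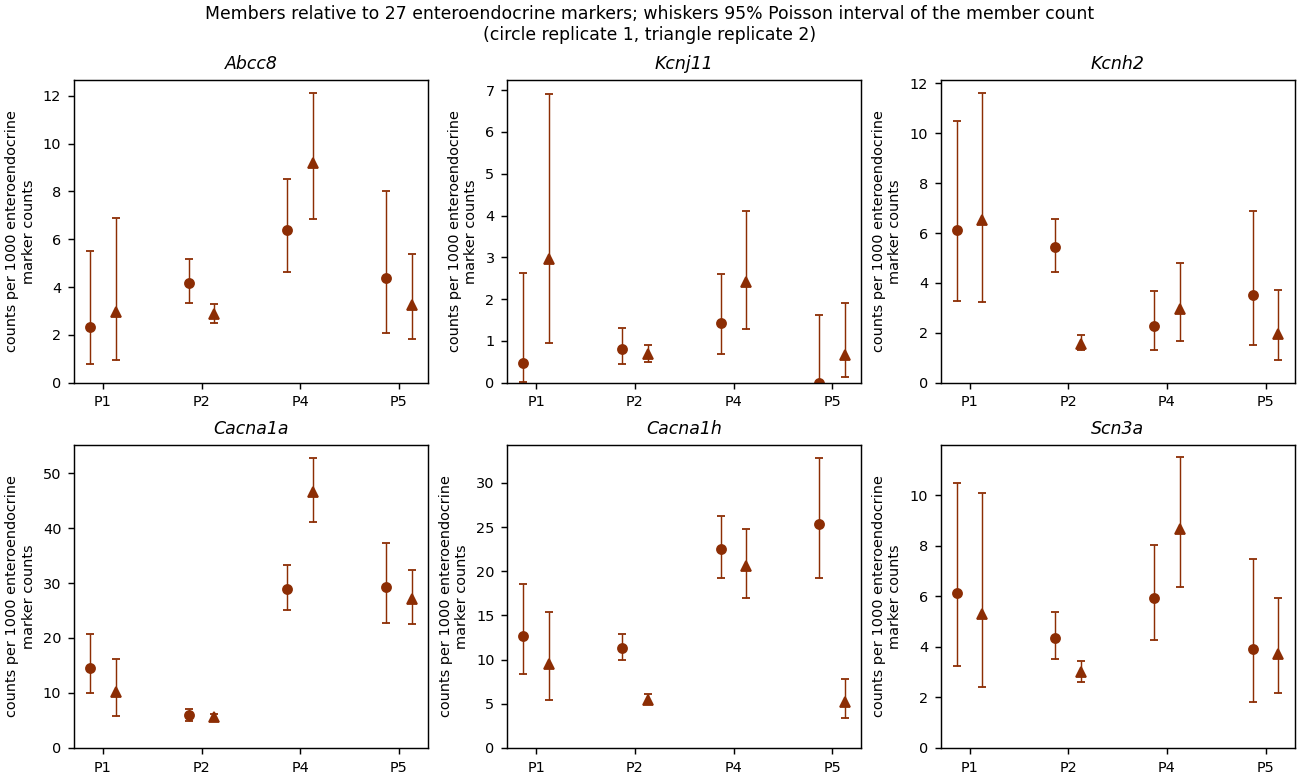
Counts of the 6 genes per 1000 summed counts of 27 enteroendocrine markers (vertical axes, linear, from 0) in P1, P2, P4 and P5; circles are replicate 1, triangles replicate 2, and whiskers the exact 95% Poisson interval of the gene's count. P3 is left out because its markers gave few counts. Cacna1a is at 27.1 to 46.6 in P4 and P5 and under 6 in P2.

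Over the 10 libraries, the genes with the pattern most like each member were found by Pearson's r of log2 CPM among 13707 genes. For each member between 159 and 447 genes had r over 0.9, so the first 3 stand close to many others. Of the 18 neighbours named, 3 were also among the first 3 by Spearman's rho. They are given as a description, and all of them share the high level of both libraries labelled P2. Abcc8 was most like Rab3c (r = 0.99), a GTPase of secretory vesicles, Isl1 (0.98), an endocrine transcription factor, and Runx1t1 (0.98). Scn3a was most like Celf3 (0.98), Rab3c (0.98) and Fbxl16 (0.98). Kcnj11 was most like Cadps (0.98), which primes dense-core granules, Ffar2 (0.98), a receptor for short-chain fatty acids, and Spred3 (0.97).

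Kcnh2 was most like Tle6 (0.99), Slc9a3r2 (0.99) and the receptor tyrosine kinase Kit (0.99). Normalised counts of Kit were 2029 and 1550 in the libraries labelled P2, so like Kcnh2 it was lower in replicate 2. Cacna1a was most like Dmwd, Zdhhc8 and Ppfibp1 (0.98 each), and Cacna1h like Fam117a (0.99), Anks6 (0.98) and Fbxl16 (0.97). Against the mean log2 CPM of a marker list, Cacna1a had r = 0.90 with the goblet list and 0.82 with the enteroendocrine list. For each other member r was higher with the enteroendocrine list than with the goblet list, for Kcnh2 at 0.91 and 0.87. By Spearman's rho Kcnj11 had 0.79 with the enteroendocrine list and 0.80 with the goblet list. The enteroendocrine list was not the closest for all members. The muscle and interstitial list described below, with 3 tested genes that include Kit, had r = 0.93 for Kcnh2. For Cacna1h it had r = 0.98, against 0.95 with the enteroendocrine list, and for the other 4 members it was lower than the enteroendocrine list. Among the members themselves r was highest between Abcc8 and Scn3a (0.98) and between Abcc8 and Cacna1h (0.97), and lowest between Kcnh2 and Cacna1a (0.74). The genes of the K-ATP channel had r = 0.92, which put Kcnj11 at rank 227 in likeness to Abcc8.

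Some of the members are also known from neurons, smooth muscle or interstitial cells of Cajal, so markers of these were checked. The neuron and glia list of 15 genes summed to 33.4 and 58.6 CPM in the libraries labelled P2 and to 1.11 to 13.0 in the others. Ret led it, and Prph, Sox10, S100b and Nos1 were among its genes at 0 in both libraries labelled P2. The muscle and interstitial list of 8 genes summed to 349 and 288 CPM there and to 13.3 to 37.0 elsewhere. Without Kit, which led that list, it summed to 8.50 and 9.77 CPM in P2 and 2.83 to 8.99 elsewhere, and Acta2, Des and Cnn1 were at 0 in both libraries labelled P2. Tagln of that list had normalised counts of 38.0 and 34.6 in P2 and at most 20.8 elsewhere (edgeR adjusted p = 0.0111, not called). The immune list, led by Cd74, was at 89.9 and 119 CPM in P2 and 21.6 to 544 elsewhere, and the endothelial and fibroblast list of 8 genes, led by Pecam1, at no more than 5.08 CPM in any library.

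Other ion channels were then read from 7 lists of 148 genes, without the 6 members. Of these, 30 had no count in any library and 45 passed the filter. In the libraries labelled P2 against the average of the others, 28 of the 45 were higher and 5 lower by edgeR's quasi-likelihood test with a Benjamini-Hochberg adjusted p under 0.01. Over all 13708 genes 16.3% were higher and 10.7% lower. The median log2 fold change of the 45 was 3.40 and that of all genes -0.00. For 12 of the 45 a population had no count, and with such populations at the floor the medians were 3.11 and 0.06. Some of the 45 passed the filter only through P2. Of the 34 that also passed on the other 8 libraries, 18 were higher and 5 lower, and 14.4% of the 13252 genes that passed in this way were higher. The other 10 higher genes entered only through P2, where they had to be high, and those named below are given by their values, without a p. Counts by channel list below include them and were not repeated on the genes that passed without P2. Over all genes 16.3% were higher and 10.7% lower. Because the outcome of the genes that entered through P2 was set by the filter, nothing is read from the counts by channel list. The count of 33 fell to 15 without P2 replicate 2, and was 29 without both libraries labelled P3.

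**Figure D4:**
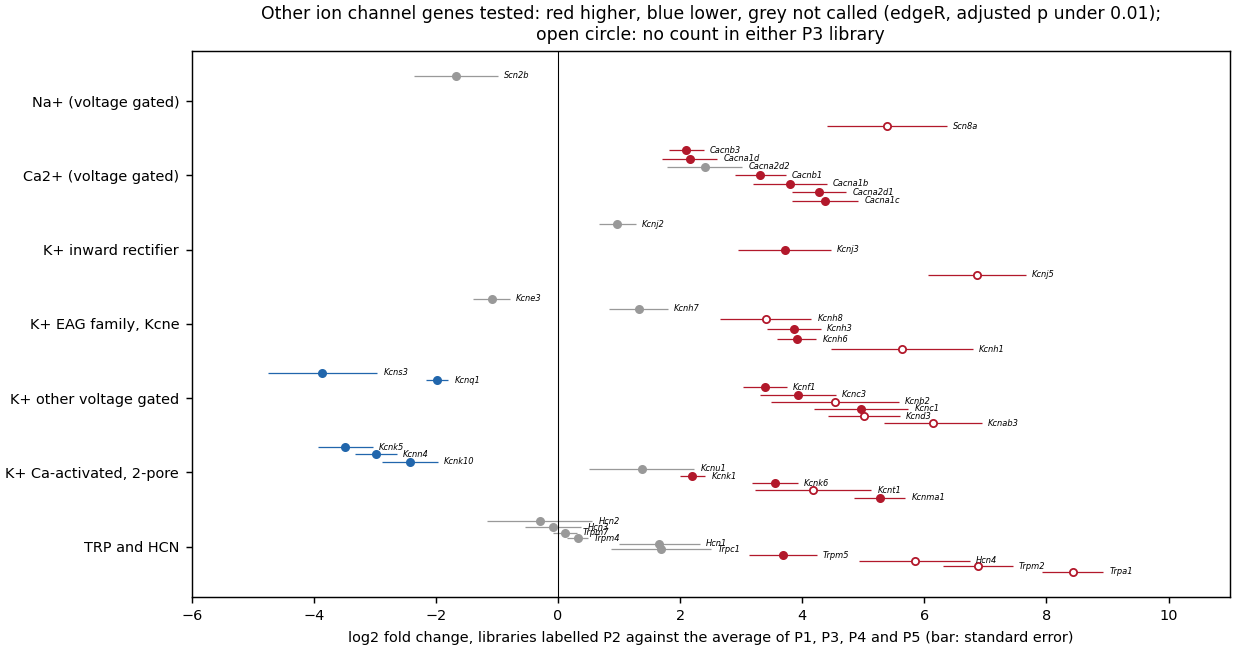
Log2 fold changes (horizontal axis, bars are standard errors) of the tested ion channel genes, 1 left out, in the libraries labelled P2 against the average of P1, P3, P4 and P5, by list. Red genes were called higher, blue lower and grey neither at an adjusted p under 0.01 in edgeR; open circles had no count in P3, and their size of change depends on the prior count.

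In the inward rectifier list, the family of Kcnj11, 3 genes passed the filter. Those of the G protein-gated type passed only through P2. Kcnj3 had normalised counts of 19.9 and 44.5 in P2 and at most 9.80 elsewhere, and Kcnj5, its partner in the channel, had 25.3 and 74.2 and at most 2.36 elsewhere. Kcnj2 was at 63.3 and 120 in P2 and 16.1 to 67.7 elsewhere and was not called (edgeR adjusted p = 0.0270). In the ether-a-go-go list, which holds the relatives of Kcnh2 and the Kcne subunits, 4 of 6 tested genes were higher and Kcnh7 and Kcne3 were not called. Kcnh6 was at 202 and 322 in P2 and at most 62.5 elsewhere (3.91, SE 0.32, edgeR adjusted p = 2.99e-05), and Kcnh3 at 174 and 127 against at most 30.6 (3.86, SE 0.44, edgeR adjusted p = 0.000162). Kcnh8 was at 10.8 and 23.5 against at most 9.37 (edgeR adjusted p = 0.00750), and Kcnh1, which passed only through P2, at 14.5 and 19.8 against at most 3.54.

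Among other voltage-gated potassium channels 6 of 8 were higher in P2 and 2 lower. Kcnd3, of the A-type current, was at 34.4 and 59.4 in P2 and at most 6.25 elsewhere (edgeR adjusted p = 0.000333), and Kcnc1 at 45.2 and 142 against at most 14.0 (edgeR adjusted p = 0.000897). Kcnab3, a beta subunit, at 77.7 and 48.2 in P2 and at most 4.47 elsewhere, and Kcnb2, at 12.7 and 61.8 against at most 11.3, passed only through P2. Of the calcium-activated and 2-pore potassium channels 4 of 8 were higher. Kcnma1, the BK channel, was at 291 and 198 in P2 and at most 17.1 elsewhere (5.27, SE 0.42, edgeR adjusted p = 2.89e-05), and Kcnk6 at 620 and 868 against at most 139 (3.55, SE 0.38, edgeR adjusted p = 0.00013). Kcnt1, which passed only through P2, was at 14.5 and 32.2 against at most 5.66.

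The 5 channels that fell in P2 were all potassium channels. The list of the largest changes held Kcnk5, and the other 4 were named after their values were seen. Kcnk5 (TASK-2) was at 9.04 and 32.2 in P2 and 137 to 344 elsewhere (-3.49, SE 0.45, edgeR adjusted p = 0.000314). Kcnn4, a calcium-activated channel of epithelia, was at 28.9 and 49.5 against 77.4 to 637 (-2.98, SE 0.34, edgeR adjusted p = 0.000171). Kcnq1, which in epithelia drives chloride secretion, was at 192 and 187 in P2 and 177 and 232 in P1, against 783 to 1314 in P3, P4 and P5 (-1.98, SE 0.18, edgeR adjusted p = 4.74e-05). Kcnk10 and Kcns3 had log2 fold changes of -2.43 (edgeR adjusted p = 0.00265) and -3.86 (edgeR adjusted p = 0.00763).

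Of the other calcium channel genes 6 of 7 tested were higher in P2, among them pores of the L and N type and auxiliary subunits. Cacna1c was at 101 and 81.6 in P2 and at most 13.9 elsewhere (4.38, SE 0.54, edgeR adjusted p = 0.000245). Cacna1b passed only through P2, with 34.4 and 65.5 there and at most 6.39 elsewhere. Cacna2d1, an alpha2delta subunit, was at 90.4 and 294 against at most 29.2 (4.28, SE 0.44, edgeR adjusted p = 9.29e-05), and Cacnb1 at 75.9 and 49.5 against at most 13.9 (3.31, SE 0.42, edgeR adjusted p = 0.00031). Of the 14 other sodium channel genes only 3 passed the filter. The 2 called higher passed only through P2, where they had to be high, so nothing is read from their count. Among them was the pore Scn8a, at 14.5 and 34.6 in P2 and at most 2.85 elsewhere. No other sodium channel pore reached the level of Scn3a in P2.

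In the list of TRP and HCN channels 4 of 10 were higher. Trpa1, the irritant receptor of enterochromaffin cells, was at 564 and 960 in P2 and at most 22.9 elsewhere (edgeR adjusted p = 1.55e-05). Trpm2 was at 121 and 378 against at most 21.1 (edgeR adjusted p = 5.77e-05). The pacemaker channel Hcn4, which passed only through P2, was at 21.7 and 56.9 against at most 8.33. Trpm5, also on the tuft list, was at 1137 and 1675 against 24.5 to 380 (3.68, SE 0.56, edgeR adjusted p = 0.000788).

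Genes of regulated exocytosis, the step that calcium entry triggers, were higher in P2 for 19 of 23 tested and lower for none. Over all genes 16.3% were higher and 10.7% lower. The median log2 fold change of the 23 was 3.76 (3.36 with populations without counts at the floor), and that of all genes -0.00 (0.06). Rab3c was at 212 and 286 in P2 and at most 24.3 elsewhere (edgeR adjusted p = 2.92e-05). Rab3b, at 39.8 and 47.0 against at most 1.89, and Cplx1, at 21.7 and 50.7 against at most 5.30, passed the filter only through P2. Of the 20 that also passed the filter on the other 8 libraries 16 were higher, beside 14.4% of all genes that passed in this way. The count of 19 fell to 11 without P2 replicate 2.

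Of 10 tested genes that bring glucose into the cell or sense it, 4 were higher in P2 and 1 lower. Over all genes 16.3% were higher and 10.7% lower. Hk1 was at 157 and 322 in P2 and at most 73.6 elsewhere (2.82, SE 0.35, edgeR adjusted p = 0.000285), and the glucose transporter Slc2a1 at 215 and 366 against at most 190 (1.78, SE 0.31, edgeR adjusted p = 0.00185). Hk2, named after its values were seen, was at 412 and 641 against at most 319 (1.65, SE 0.21, edgeR adjusted p = 0.000337). The sodium-glucose transporter Slc5a1, also on the enterocyte list, was lower, at 588 and 424 in P2 and 2030 to 12281 elsewhere (-3.54, SE 0.84, edgeR adjusted p = 0.00834). Without P2 replicate 2 the count of 5 fell to 1.

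Between single populations fewer channels were called. The 45 again hold genes that passed the filter only through P2, where they had to be high. Among those called higher, these were Cacna1b, Hcn4, Kcnab3 and Kcnj5 in P2 against P1, and Kcnab3 in P2 against P4. The counts for these pairs were not repeated on the genes that passed without P2. In P2 against P1, 21 of the 45 were higher and 1 lower (13.9% and 15.2% of all genes). This count of 22 was 11 and 10 without P1 replicate 1 or 2, and 13 and 11 without P2 replicate 1 or 2. In P2 against P4, by the labels OSCARhigh against OSCARmed at low EF1a, 8 were higher and 5 lower (8.02% and 6.30% of all genes). Trpa1 (5.34, SE 0.64, edgeR adjusted p = 0.00107), Kcnma1 (4.43, SE 0.62, edgeR adjusted p = 0.00133) and Kcnh6 (2.16, SE 0.43, edgeR adjusted p = 0.00617) were among the 8. The count of 13 ranged from 3 without P4 replicate 1 or 2 to 24 without P3 replicate 1, and was 23 without P3 replicate 2, 7 and 4 without P2 replicate 1 or 2, and 8 without either library of P5.

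In P1 against P4 no channel was higher and 4 were lower (14.0% and 9.44% of all genes), namely Kcnq1, Kcnn4, Kcne3 and Scn2b, all named after their values were seen. In P3 against P1, 4 were higher and none lower (8.02% and 7.59% of all genes), namely Kcnq1, Kcnn4, Kcne3 and Kcnk10. The first count was 0 without either library of P4, 1 without P1 replicate 1, and 10 without either library of P3. The second was 0 without P1 replicate 1 and 1 without P1 replicate 2. In P5 against P4, which differ in EF1a at medium OSCAR, no channel and no gene was called by edgeR (0% of all genes), with 2 channels and 351 genes at an unadjusted p under 0.05. DESeq2 called 27 genes there and 0 channels.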

How the data were processed

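The authors deposited, per library, a table of read counts per gene name. Per the labels and the study's methods, reads of poly-A libraries (TruSeq v2, NextSeq) were checked with FastQC 0.11.5, aligned to mm9 with TopHat2 2.1.0 and counted over exons without strand with HTSeq 0.11.2. Reads with several alignments were not counted. The annotation used for counting is not given in the sources used here. The study has 2 biological replicates per population. Whether populations with the same replicate number came from the same mouse is not stated.

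From these counts 204 rRNA gene names were removed, which left 34802 names. A row without a gene name, at most 0.00039% of counts, and the summary rows of HTSeq were left out. Genes were filtered with filterByExpr (minimum count 10, 13708 genes kept), scaled by TMM and fitted with 5 population means over all 10 libraries in edgeR 4.0.16 (R 4.3.3) by glmQLFit and glmQLFTest, with 5 residual degrees of freedom. P values were adjusted by Benjamini-Hochberg over all tested genes and called under 0.01. Normalised counts use DESeq2 1.42.0 size factors. Log2 CPM use a prior count of 2. Levels are per kilobase of merged exons of GENCODE on NCBIM37, and 33643 of 35006 gene names matched.

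The members and all lists were chosen with earlier results of these data known. Named genes are the 6 members, the 4 genes with the largest absolute log2 fold change among those called in each list, the 3 genes most like each member by Pearson's r, and the leading marker of each list. Some genes that this rule names are not reported here. Alternatives were DESeq2 size factors, no filter, DESeq2's Wald test, an adjusted p under 0.05, the replicate number as a block, no mitochondrial genes, and leaving out each library or both of P3.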

Additional observations from a re-analysis of the deposited data

How the results depend on the processing

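For the members, the sign of the log2 fold change in P2 against the average stayed positive in every fit. With DESeq2's Wald test Kcnh2 was at 5.47. Without both libraries labelled P3, Abcc8, Kcnh2, Cacna1h and Scn3a were at 4.26, 4.25, 3.61 and 3.97. Leaving out 1 library gave 5.41 to 6.24 for Abcc8, 3.68 to 5.13 for Kcnj11 and 5.59 to 6.0 for Kcnh2. The ranges were 2.16 to 4.85 for Cacna1a, 4.08 to 4.54 for Cacna1h and 4.20 to 5.68 for Scn3a. The upper ends for Kcnj11, Cacna1a and Scn3a came without P3 replicate 2. These genes then had no count in P3, so those values depend on the prior count.

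The count of channels called in P2 against the average was within 1.5 times of 33 under all settings that kept every library, and 15 to 39 with 1 library left out. The exocytosis count was 11 to 21 and the glucose count 1 to 7 with 1 library left out. The channel counts with 1 library left out were 10 to 25 in P2 against P1, 3 to 24 in P2 against P4, 0 to 10 in P1 against P4, 0 to 5 in P3 against P1, and 0 in P5 against P4. Where this left a population with 1 library, that library was assumed to vary like the others. Without the filter on low counts, where more genes were tested, the glucose count was 10 and the channel counts 27 in P2 against P4, 12 in P1 against P4 and 9 in P3 against P1. DESeq2 gave 8 for the glucose list, 27 in P2 against P4 and 9 in P1 against P4. An adjusted p under 0.05 gave 29, 12 and 7 channels in P2 against P4, P1 against P4 and P3 against P1. Without mitochondrial genes P1 against P4 had 7. Apart from the looser threshold, the cause of these differences was not tested. The median r of the member pairs was 0.92 by Pearson and 0.82 by Spearman.

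The labels give no pairing of same-numbered libraries beyond the number. The correlation of their deviations from the population means ran from -0.0597 (P2 with P3) to 0.554 (P4 with P5), with a median of 0.255. With the replicate number as a block, the channel counts were 32 in P2 against the average, 23 against P1, 17 against P4, 5 in P1 against P4, 4 in P3 against P1 and 0 in P5 against P4, and the lists of exocytosis and glucose genes had 19 and 7. Counts of 0 to 5 per library limit what can be said of Kcnj11 outside P2 and P4.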
